A study of Homo sapiens with 6 samples.

Results

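Polyamine metabolism was followed through 10 genes, ODC1, AMD1, SRM, SMS, OAZ1, OAZ2, SAT1, SMOX, PAOX and MTAP, taken by name from the 23368 gene symbols listed in each table of RNA-seq counts. The cells were NB4, an established human line of acute promyelocytic leukemia, which carries the PML/RARα fusion and stands here for that disease as a single line. They were either not treated or exposed to maltonis, a molecule derived from maltol, a natural hydroxypyrone, at 10 µM, and both groups shared the same serum-supplemented RPMI medium and the 24 h time. Each group had 3 libraries, described in the study as biological replicates, and the comparison asked which transcripts differ after the treatment.

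The 6 libraries held between 18492154 and 38205483 counts, and a floor of 3 counts therefore lay between 0.0828 and 0.160 CPM (counts scaled to library size, with TMM factors), with counting error alone considered. A code in the library names parts replicate 1 (batch A) from replicates 2 and 3 (batch B) in both groups, and its meaning is not stated. The promyelocyte genes MPO, AZU1, PRTN3, CTSG and CD33 were all detected. MPO was at 12892 to 15528 CPM without treatment and 7298 to 7553 CPM after maltonis and CD33 at 43.1 to 49.7 and 29.7 to 35.2 CPM, while CTSG was at 103 to 113 and 539 to 576 CPM, PRTN3 at 449 to 584 and 595 to 896 CPM and AZU1 at 41.5 to 49.2 and 60.0 to 71.3 CPM. CD34 and HLA-DRA, usually low in this leukemia, had between 0 and 10 counts a library, and the erythroid gene HBB and the B cell gene MS4A1 had none. Of the T cell markers, CD3E had at most 2 counts in a library, while CD3D was at 42.9 to 44.8 CPM without treatment and 14.9 to 15.8 CPM with maltonis. The part of these markers in the results was not tested.

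Polyamines are small positively charged molecules, putrescine, spermidine and spermine, that bind nucleic acids and are needed for growth and translation. ODC1 makes putrescine from ornithine, AMD1 makes the decarboxylated S-adenosylmethionine that donates aminopropyl groups, and SRM and SMS use it to build spermidine and then spermine. The antizymes OAZ1 and OAZ2 bind ODC1 protein and send it to the proteasome, SAT1 acetylates spermidine and spermine, and SMOX and PAOX oxidize spermine and the acetylated forms. MTAP recycles methylthioadenosine, the by-product of the aminopropyl transfers, and ODC1 is a textbook target of the transcription factor MYC.

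After maltonis, the transcripts of all 4 synthesis enzymes fell by 1.69-fold to 2.08-fold, while SAT1 rose by 1.89-fold. OAZ2 and SMOX also fell, OAZ1 and PAOX did not pass the test, and MTAP had no counts in any library. Of the 9 members that could be tested, 6 were lower and 1 was higher at a false discovery rate (FDR) under 0.01 by the quasi-likelihood test of edgeR. Of all 13209 genes tested, 64.0% were called, 32.1% lower and 31.9% higher. The median log2 fold change of the 9 was −1.04, against 0.01 for all genes tested. The groups did not overlap for 8 of the 9 (7 lower and 1 higher), a separation shown by 76.6% of all genes tested (37.8% lower and 38.8% higher). A change beyond 2.5-fold was reached by SMOX alone among the members, beside 10.4% of all genes lower and 9.95% higher past that size. In bulk RNA, fewer cells with a transcript and less of it per cell cannot be told apart.

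**Figure D1:**
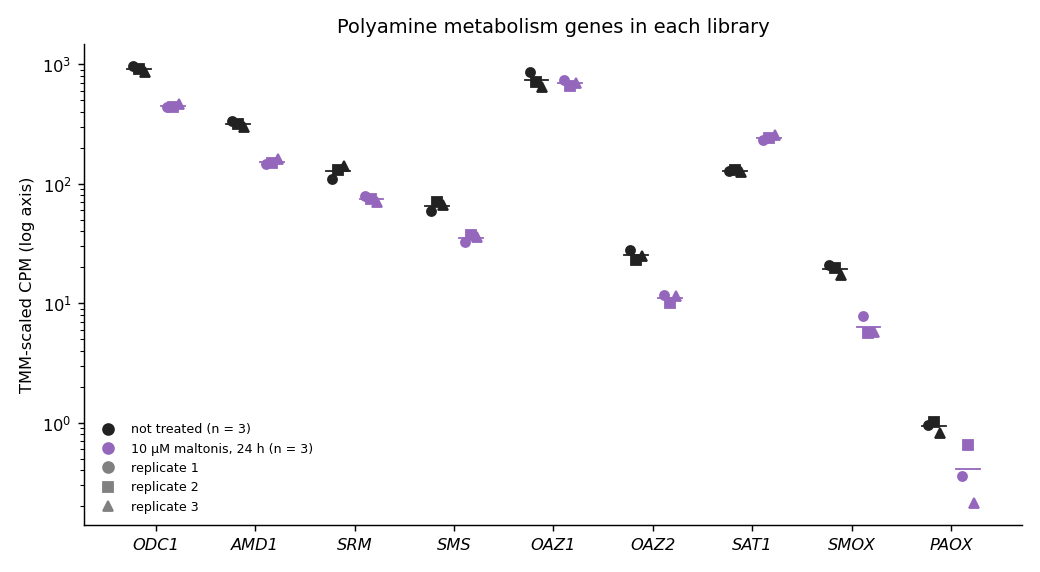
Level of each tested member in the 6 libraries, in TMM-scaled CPM on a log axis, with not treated libraries in black, maltonis-treated ones in purple, the symbol shape for the replicate and a bar for the group mean. The 3 treated libraries lie below the 3 not treated ones for ODC1, AMD1, SRM, SMS, OAZ2, SMOX and PAOX and above them for SAT1, while those of OAZ1 overlap; MTAP, at 0 throughout, cannot be drawn on this axis.

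ODC1, the rate-limiting enzyme of synthesis, stood at 973, 919 and 870 CPM in not treated replicates 1, 2 and 3 and at 437, 442 and 466 CPM after maltonis. Every treated library was thus below every not treated one. Means ± SD of the 3 libraries were 921 ± 51.1 and 448 ± 15.8 CPM, and the log2 fold change by edgeR was −1.04 (standard error 0.063, adjusted p = 1.16e-06). Batch A alone gave a log2 difference of −1.16, and batch B one of −0.98. Of the summed counts of the members, ODC1 held 38.7% to 39.6% without treatment and 25.9% to 27.4% after maltonis.

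AMD1 had 339, 316 and 302 CPM without treatment and 148, 151 and 160 CPM with it, again without overlap. The log2 fold change of AMD1 was −1.06 (standard error 0.065, edgeR adjusted p = 1.20e-06), with means ± SD of 319 ± 18.7 and 153 ± 6.38 CPM. Over the 6 libraries, AMD1 was the gene whose log2 CPM was most like that of ODC1 among all genes tested (Pearson r = 0.99990, a description over 6 libraries that fall into 2 groups). GALNT11 and OSGEP followed with r of 0.99967 and 0.99964, and 1161 genes had an r over 0.99, so that a high value was common. The ratio of ODC1 to AMD1, each per kilobase, was examined after these values had been seen and was 6.80, 6.89 and 6.83 without treatment, as against 6.99, 6.94 and 6.90 with it. The means of 6.84 ± 0.047 and 6.94 ± 0.047 (SD, n = 3) differed by 0.02 on the log2 scale (two-sided exact permutation test, p = 0.1, the smallest that 3 libraries against 3 allow).

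SRM had 110, 130 and 141 CPM without treatment and 79.7, 74.7 and 71.1 CPM after maltonis. The groups did not overlap, and the log2 fold change was −0.76 (standard error 0.096, edgeR adjusted p = 0.000106). The batches gave −0.46 (A) and −0.90 (B) for SRM, and the not treated replicate 1 was its lowest control. SMS had 58.8, 69.9 and 67.1 CPM against 32.5, 37.7 and 35.8 CPM, also without overlap. Its log2 fold change of −0.88 (standard error 0.088, edgeR adjusted p = 2.37e-05) differed little between the batches, at −0.85 (A) and −0.90 (B). The within-library log2 ratio of SMS to SRM, which does not depend on the scaling, was −1.14 ± 0.10 and −1.28 ± 0.18 (SD, n = 3), and the groups overlapped (two-sided exact permutation test, p = 0.3). GENCODE release 29 names 4 processed pseudogenes after AMD1 and 2 after SRM, none of them listed in the count tables, so that reads shared with these copies leave the 2 genes less certain.

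Bases near the start sites of the 4 synthesis genes and of SAT1 are shown because MYC, which binds the E-box CACGTG, fell in the same libraries from 661 ± 57.8 to 185 ± 6.64 CPM (SD, n = 3; log2 fold change −1.84, edgeR adjusted p = 1.66e-07). The part of MYC in the changes of the members was not tested. RefSeq windows of 300 bases, 250 before and 50 after a start site, were found for 8 of the 10 members, in 11 windows on GRCh38.p14, and not for SMOX and PAOX. The letters searched were CACGTG (its own reverse complement), the interferon response element core (GAAA, any 2 bases, GAAA) and the metal response element cores TGCGCNC and TGCACNC, on both strands, and capitals mark every match within the printed stretches. Each sequence is the longest stretch of its window outside the exons that GENCODE release 29 gives the gene and reaching at most 12 bases past the RefSeq start site, read 5′ to 3′ on the gene’s strand. For ODC1 it belongs to the second RefSeq start site, at which no GENCODE exon begins, and is intronic to transcripts that begin upstream (chr2:10448001-10448120, minus strand). The SRM stretch is chr1:11060025-11060268 on the minus strand, that of AMD1 chr6:110874534-110874769 on the plus strand, that of SMS chrX:21940459-21940572 on the plus strand and that of SAT1 chrX:23782923-23783172 on the plus strand.
ODC1: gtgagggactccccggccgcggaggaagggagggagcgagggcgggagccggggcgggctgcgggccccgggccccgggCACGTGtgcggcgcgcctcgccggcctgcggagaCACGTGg
SRM: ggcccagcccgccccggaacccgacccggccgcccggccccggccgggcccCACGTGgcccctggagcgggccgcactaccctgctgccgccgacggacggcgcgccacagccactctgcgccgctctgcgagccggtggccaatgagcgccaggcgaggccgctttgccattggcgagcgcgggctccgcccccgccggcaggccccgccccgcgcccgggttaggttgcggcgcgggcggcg
AMD1: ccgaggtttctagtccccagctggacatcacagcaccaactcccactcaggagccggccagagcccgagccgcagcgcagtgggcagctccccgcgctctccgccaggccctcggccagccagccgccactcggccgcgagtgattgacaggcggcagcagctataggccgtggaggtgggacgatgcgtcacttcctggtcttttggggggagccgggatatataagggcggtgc
SMS: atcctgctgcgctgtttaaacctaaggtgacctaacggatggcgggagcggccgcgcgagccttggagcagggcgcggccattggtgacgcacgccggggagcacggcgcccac
SAT1: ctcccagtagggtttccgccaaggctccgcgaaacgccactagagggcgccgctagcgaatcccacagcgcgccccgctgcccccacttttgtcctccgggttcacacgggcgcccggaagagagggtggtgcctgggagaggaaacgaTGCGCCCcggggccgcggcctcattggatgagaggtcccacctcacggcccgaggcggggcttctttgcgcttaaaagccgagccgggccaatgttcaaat

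ODC1 held CACGTG at 2 places in the window of its second start site, beginning at −29 and 6 from it, where 1 is the base that follows the 250 upstream bases. The window of its first start site, which lies upstream and is not printed, did not hold CACGTG. SRM held it at −199, and none of the windows of AMD1, SMS, OAZ1, OAZ2, SAT1 and MTAP did. Among all 35116 windows, 7.26% held CACGTG and 0.664% held it at least 2 times. Of the 27305 genes with a window, 8.77% held it in at least 1. The interferon response element core was found only for OAZ1, with 2 overlapping matches, against 3.57% of all windows and 4.38% of all genes with a window. A metal response element core was found for SMS, OAZ1 and SAT1, against 29.6% of all windows and 33.4% of all genes with a window. The SMS match, at 16, lies in an exon and so outside the printed stretch. AMD1 had none of these letters in its 3 windows, and bases outside the windows were not searched. The matches are a description of the letters, and binding was not measured in these counts.

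OAZ1, the more abundant antizyme, had 856, 711 and 651 CPM without treatment and 737, 663 and 695 CPM with maltonis. The values overlapped, and the highest was the not treated replicate 1. Its log2 fold change was −0.08 (standard error 0.0997, edgeR adjusted p = 0.476), with a 95% interval from −0.31 to 0.15. Without that library the value was 0.025, and scaling to total counts gave 0.036, so that no direction can be read. OAZ1 shares 236 exon bases with JSRP1 on the opposite strand, a gene with between 1 and 4 counts a library, and without a stated strand setting reads of such partners cannot be told apart. OAZ2 had 27.7, 23.2 and 24.9 CPM against 11.7, 10.1 and 11.6 CPM, with no overlap. It fell by 1.18 on the log2 scale (standard error 0.0996, edgeR adjusted p = 8.19e-06), with batch values of −1.25 (A) and −1.15 (B). OAZ2 shares 554 exon bases with an antisense gene on the opposite strand that is not among the counted symbols.

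Within a library, the 2 antizymes can be compared without regard to scaling. The level of a ratio per kilobase rests on the exon lengths taken, while its difference between the groups does not. The log2 ratio of OAZ2 to OAZ1, counts per kilobase, was −6.11, −6.10 and −5.87 without treatment and −7.14, −7.19 and −7.07 with it, a difference of −1.11 (two-sided exact permutation test, p = 0.1, adjusted over 5 pairs 0.167). The log2 ratio of OAZ1 to ODC1 was −0.54 ± 0.12 without treatment and 0.43 ± 0.10 with it (SD, n = 3). With merged exon lengths, OAZ1 was below ODC1 in each not treated library and above it in each treated one, an order that the shorter basic-set length of OAZ1 reverses without treatment. The p of this ratio was again 0.1 by the exact permutation test (adjusted 0.167), the smallest the design allows.

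SAT1 was the only member called higher. It had 128, 131 and 127 CPM in not treated cells and 233, 242 and 255 CPM after maltonis, so that the lowest treated library was well above the highest control. Means ± SD were 129 ± 2.27 and 243 ± 10.7 CPM, and the log2 fold change by edgeR was 0.92 (standard error 0.057, adjusted p = 1.26e-06), with batch values of 0.87 (A) and 0.94 (B). The genes most like SAT1 over the 6 libraries were GALT, SLC25A20 and MDM1, with r of 0.99973, 0.99968 and 0.99960, and 813 genes had an r over 0.99. Set against the rate-limiting enzyme of synthesis, the log2 ratio of SAT1 to ODC1 was −2.68, −2.56 and −2.53 without treatment and −0.65, −0.62 and −0.62 with it. The means differed by 1.96, or 3.88-fold (two-sided exact permutation test, p = 0.1, adjusted 0.167). The levels used the merged exon length of SAT1, 2498 bases, which is 1683 bases in the basic set.

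**Figure D2:**
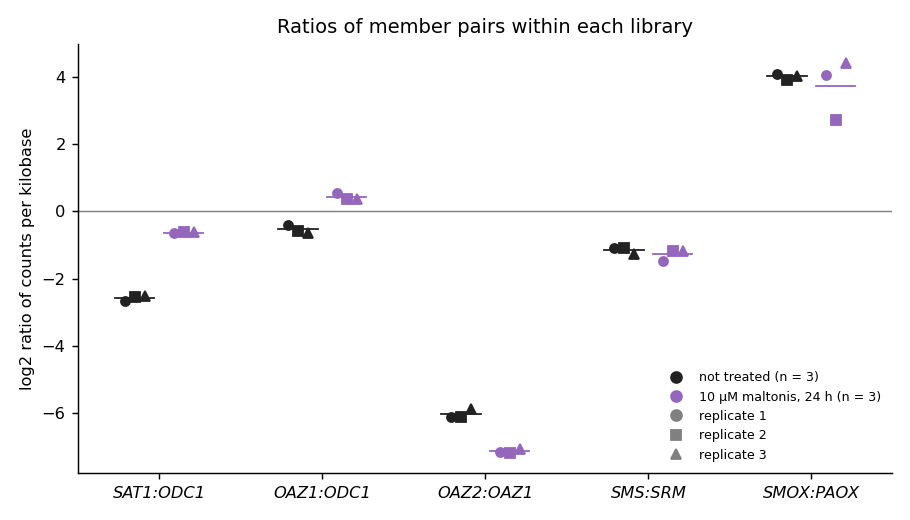
Log2 ratio of the counts per kilobase of 2 members within each library, for the 5 planned pairs, with not treated libraries in black, maltonis-treated ones in purple and bars for group means. The treated libraries lie above the controls for SAT1:ODC1 and OAZ1:ODC1 and below them for OAZ2:OAZ1, whereas the groups of SMS:SRM and SMOX:PAOX overlap.

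Neither oxidase was called higher. SMOX, which oxidizes spermine directly, had 21.0, 19.9 and 17.1 CPM without treatment and 7.80, 5.61 and 5.79 CPM with it, the lowest control being above the highest treated library. Its log2 fold change of −1.61 (standard error 0.142, edgeR adjusted p = 1.10e-05) was the largest fall among the members and lower than that of all but 7.51% of the genes tested. PAOX, which acts on the acetylated polyamines, had only 18, 37 and 27 counts without treatment and 7, 22 and 6 counts with it. In CPM these are 0.959, 1.02 and 0.814 against 0.361, 0.656 and 0.213, and the groups did not overlap. PAOX was not called, with a log2 fold change of −1.11 (standard error 0.356, edgeR adjusted p = 0.0196). Without the maltonis replicate 2, its highest treated library, the value was −1.77 (edgeR adjusted p = 0.00303), and without the maltonis replicate 3 it was −0.80 (edgeR adjusted p = 0.0542).

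**Figure D3:**
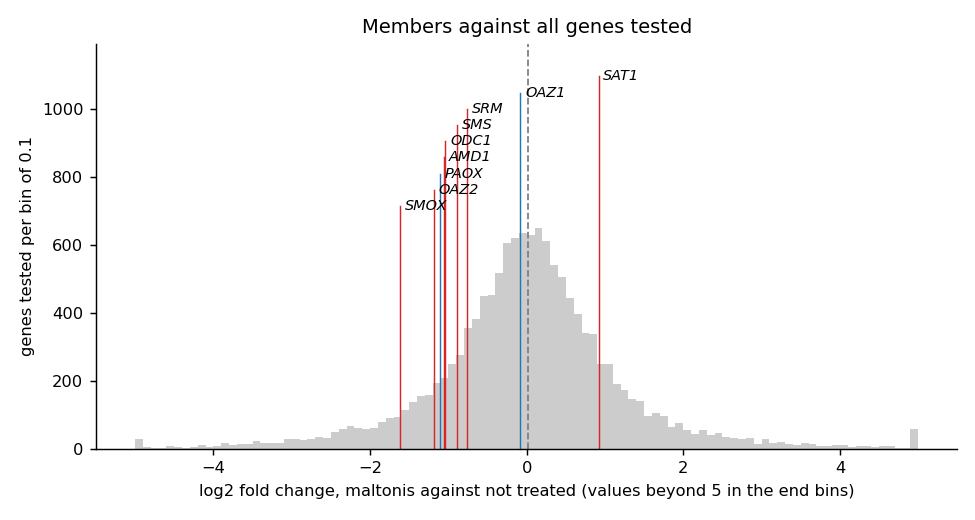
Distribution of the log2 fold change (maltonis against not treated) over the 13209 genes tested, in bins of 0.1, with a dashed line at the median of 0.01 and a line at each tested member, red where called at an FDR under 0.01 and blue where not. The 4 synthesis enzymes lie close together between −1.06 and −0.76, and SAT1 lies on the other side at 0.92.

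Levels can be compared between genes only per length, and CPM per kilobase of exon (RPKM) was computed with merged exon lengths. In not treated cells the order was ODC1 (310 ± 17.2 RPKM), OAZ1 (215 ± 30.7), SRM (66.9 ± 8.45), SAT1 (51.5 ± 0.909), AMD1 (45.3 ± 2.66), SMS (30.2 ± 2.68), SMOX (6.57 ± 0.681), OAZ2 (3.29 ± 0.299) and PAOX (0.409 ± 0.047 RPKM, SD, n = 3). After maltonis, OAZ1 came first with 203 ± 10.9 RPKM and ODC1 second with 151 ± 5.32 RPKM, and SAT1, at 97.4 ± 4.29 RPKM, passed SRM, at 39.6 ± 2.28 RPKM (SD, n = 3). In both groups, neighbours in the order did not overlap in their 3 libraries. The order rests on the length: with the exons of the GENCODE basic set, OAZ1 stood above ODC1 in both groups, at 644 against 311 RPKM without treatment, AMD1 above SAT1 without treatment and OAZ2 above SMOX in both groups. In all, 4 of the 10 members kept their place in not treated cells. As a share of all counts, the 10 genes took 0.212% to 0.243% of a not treated library and 0.169% to 0.177% of a maltonis-treated one.

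MTAP was listed at 0 in all 6 libraries, which allows at most 0.0828 CPM in the library with the lowest floor, and neither a fold change nor a test can be given. It was not alone along the chromosome. From IFNE to ELAVL2, 9 listed genes in a row on chromosome 9, 6 protein-coding and 3 noncoding, were at 0 in every library, among them CDKN2A and CDKN2B, which encode inhibitors of the cell cycle. Of the symbols in the tables, 21.9% were at 0 throughout. The listed genes outside this row included well-read ones on both sides: MIR31HG with 1248 to 5275 counts, KLHL9 with 2810 to 6689 and, on the far side, PLAA with 2033 to 8165. The interferon alpha genes between KLHL9 and MIR31HG had at most 5 counts in a library. Whether the MTAP locus is present in the DNA of these cells was not tested.

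**Figure D4:**
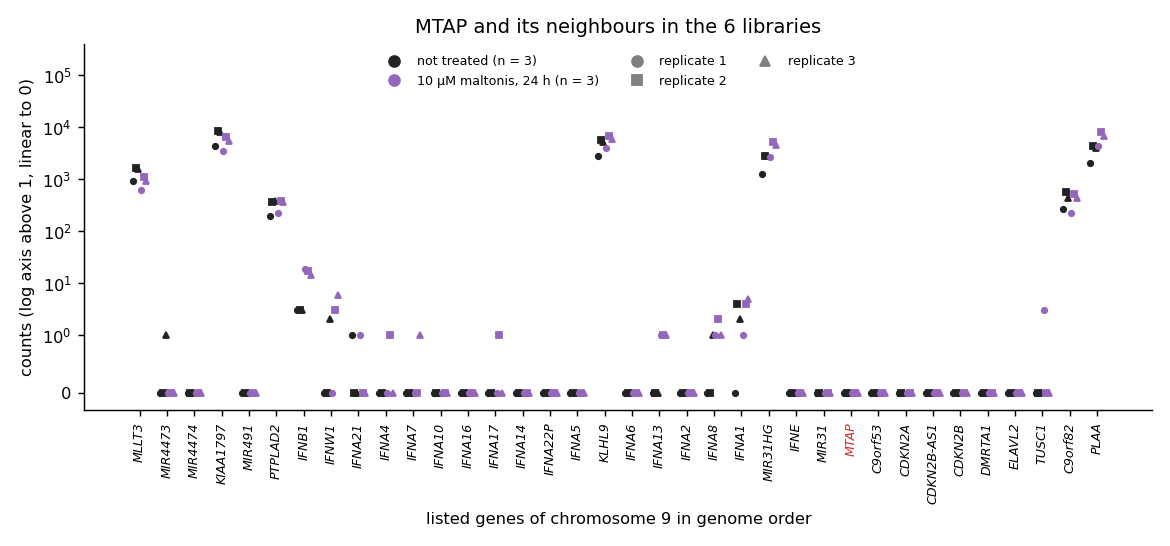
Counts of MTAP (red label) and the listed genes around it on chromosome 9, in genome order, in each library, on an axis that is linear from 0 to 1 and logarithmic above. MTAP and the genes from IFNE to ELAVL2 lie at 0 in not treated (black) and maltonis-treated (purple) libraries, while MIR31HG, C9orf82 and PLAA on either side do not.

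Genes around the pathway came from a list of 31, of which 25 could be tested: 13 were lower and 3 higher at an FDR under 0.01 by edgeR, beside 32.1% and 31.9% of all genes, and their median log2 fold change was −0.27. All 4 tested transport genes were lower. ATP13A2, a lysosomal polyamine exporter, fell most of the list, from 40.1, 37.7 and 37.5 to 3.46, 3.85 and 2.91 CPM (log2 fold change −3.49, standard error 0.109, edgeR adjusted p = 4.49e-08). SLC22A16 and SLC3A2 had log2 fold changes of −1.03 and −0.98 and ATP13A3 one of −0.47. SLC22A3, SLC18B1 and SLC12A8 had too few counts to test.

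Of the genes listed around arginine and ornithine metabolism, OAT, ALDH18A1 and AGMAT were lower and ARG2 was higher. OAT, which interconverts ornithine and glutamate semialdehyde, went from 17.6, 19.7 and 19.2 to 4.49, 5.07 and 4.51 CPM (4.0-fold lower, edgeR adjusted p = 3.71e-07). ALDH18A1, which acts on glutamate at the start of the same route, and AGMAT had log2 fold changes of −1.34 and −1.77. ARG2, an arginase, moved the other way, from 11.2 ± 0.384 to 17.8 ± 0.165 CPM (SD over 3 libraries; log2 difference 0.67, edgeR adjusted p = 5.67e-05), and shares 904 exon bases with VTI1B on the opposite strand. ARG1 had at most 2 counts in a library and was not tested.

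The paralog SAT2, unlike SAT1 a gene with few reads in untreated cells, rose from 1.38, 0.994 and 1.15 to 8.62, 9.43 and 9.58 CPM (log2 fold change 3.01, standard error 0.142, edgeR adjusted p = 3.08e-07). AOC1, a diamine oxidase listed under its older symbol ABP1, was lower at −0.90. OAZ3, the antizyme known from testis, was higher at 2.47 (standard error 0.278, edgeR adjusted p = 5.03e-05), but from 9, 8 and 13 to 39, 72 and 45 counts, and it shares 333 exon bases with MRPL9 on the opposite strand. The antizyme inhibitors AZIN1 and AZIN2 did not pass the test, with log2 fold changes of 0.07 and 0.53 (edgeR adjusted p = 0.337 and 0.0315).

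Spermidine is also the source of hypusine, the modified lysine of the translation factor EIF5A. EIF5A fell by 1.14 on the log2 scale (standard error 0.069, edgeR adjusted p = 1.20e-06), with means ± SD of 302 ± 20.3 and 137 ± 6.64 CPM. It shares 241 exon bases with GPS2 on the opposite strand, and processed pseudogenes named after it are not among the counted symbols. The modifying enzymes DHPS and DOHH, at 0.08 and 0.11, and EIF5A2, at 0.26, were not called (edgeR adjusted p = 0.383, 0.360 and 0.0327). In the methionine cycle and salvage, 4 of 8 tested genes were lower and the other 4 were not called. Among all genes tested, 32.1% were lower and 64.0% were called in either direction. ADI1 and ENOPH1, which act in the salvage route downstream of MTAP, had log2 fold changes of −1.30 and −0.63, while those of AHCY and MTR were −0.27 and −0.22. MAT2A, which makes S-adenosylmethionine, was at 0.21 (edgeR adjusted p = 0.193).

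**Figure D5:**
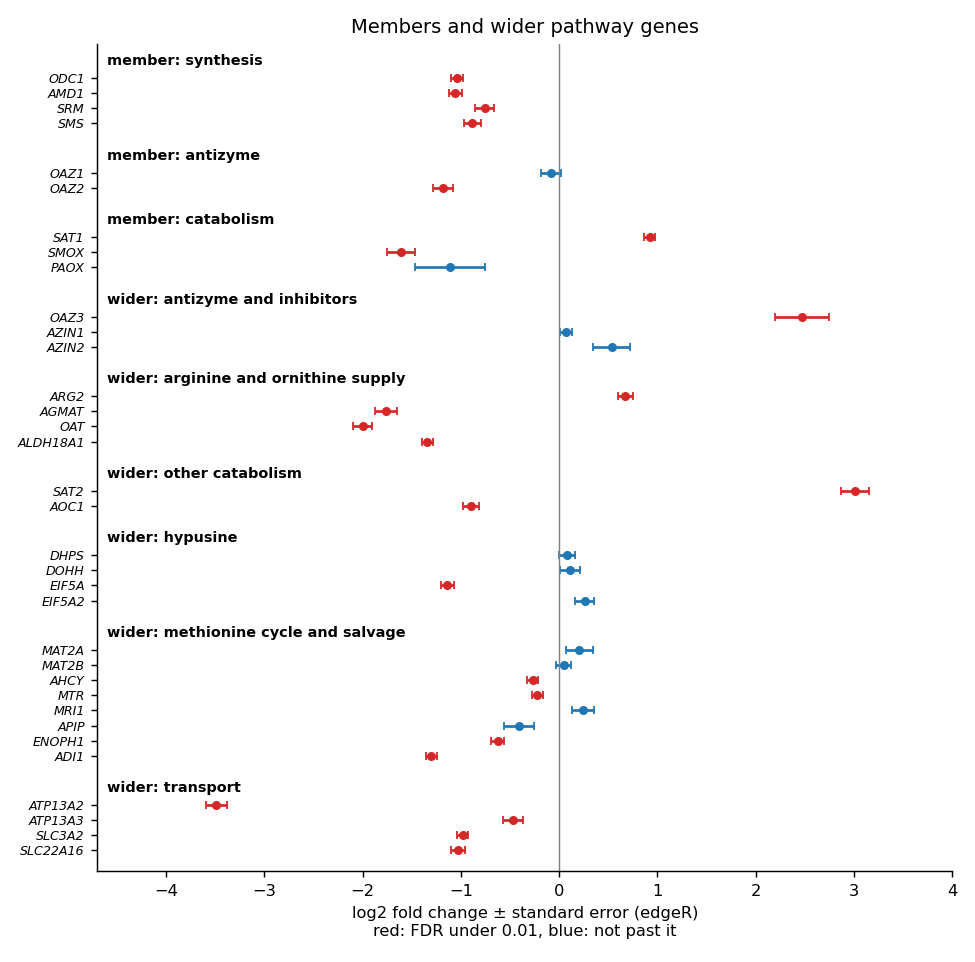
Log2 fold change with its standard error from edgeR for the 9 tested members and the 25 tested genes of the wider list, grouped by role, red where called at an FDR under 0.01 and blue where not. The synthesis and transport genes lie left of 0, and SAT1, SAT2, OAZ3 and ARG2 are the genes called to the right of it.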

How the data were processed

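RNA was sequenced from stranded total RNA libraries of NB4 cells, 3 not treated and 3 treated with maltonis. The authors deposited whole-number HTSeq counts per gene symbol, without normalization; TopHat, Bowtie2, HTSeq and hg19 are named in the submitters’ processing notes, while the annotation and strand setting are not given in the sources used here. The members and lists were chosen with earlier results of these data known. The test was that of edgeR 4.0.16 under R 4.3.3 (TMM scaling, filterByExpr, quasi-likelihood fit of 6 libraries without covariates, Benjamini-Hochberg adjustment over 13209 genes, called at an FDR under 0.01), after tests on simulated data. Standard errors are the log2 fold change divided by the root of the F statistic. RPKM used merged exons of GENCODE release 29 (GRCh38), and promoters came from RefSeq (GRCh38.p14). Within-library ratios were tested by exact permutation. Replicate libraries differed by more than sampling noise (chi-square per degree of freedom 4.33 to 35.0), and p-values measure only the spread between these libraries. Named genes are the members, the wider list, MYC, cell markers and the 3 genes most like ODC1 and SAT1. Neighbours of MTAP and genes overlapping OAZ1, OAZ3, ARG2 and EIF5A were chosen after values were seen. Alternatives covered scaling, test (DESeq2 1.42.0), filter, replicate block, batch and each library left out. Some markers of the lists are not reported here. Batch differences are of log2 CPM with 0.5 counts added.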

Additional observations from a re-analysis of the deposited data

How the results depend on the processing

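The 7 calls at an FDR under 0.01 (SAT1 higher; ODC1, AMD1, SRM, SMS, OAZ2 and SMOX lower) kept their direction and their side of the threshold under all 16 alternatives of scaling, test, filter, covariates and libraries. With a further criterion of 2.5-fold, 0 members were called higher and 1 lower. At an FDR under 0.05, 7 were lower, with PAOX added. The log2 fold change of OAZ1 turned to 0.036 with total counts and 0.0043 with the upper quartile, and ranged from −0.17 to 0.025 when each library was left out, the highest without not treated replicate 1. Total counts moved the median of all genes by 0.119 on the log2 scale. PAOX passed the threshold with the likelihood ratio test (edgeR adjusted p = 0.00163). Leaving out replicate pairs moved the log2 ratio difference of SMOX to PAOX between −0.61 and 0.17, against −0.28. With the exons of the basic set, 4 of 10 members kept their rank without treatment.

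Same-numbered libraries deviated from their group means with correlations of 0.257, 0.0696 and 0.133 across genes, and the labels do not say that a number marks a shared culture. With the replicate number as a block, 1 member was higher and 7 lower, PAOX being added (edgeR adjusted p = 0.00881), and 14 genes of the wider list were lower and 4 higher, against 13 and 3. The wider list gave 10 lower and 4 higher with total counts, 11 and 4 with the upper quartile, and 10 to 14 lower with 3 higher when each library was left out, the lowest without not treated replicate 2. For the ratios, sign flips of 3 pairs cannot go below an exact p of 0.25. Depth limits PAOX, with fewer than 40 counts in all 6 libraries, OAZ3, SAT2 and AZIN2, with fewer than 40 in some, and MTAP, at 0.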
